A study of Mus musculus with 18 samples.

Results

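Hearts transduced with the Fgf17 vector and taken 14 days after myocardial infarction (MI) were compared with sham-operated hearts that carried the control vector, to see how far an infarcted heart with FGF17 still differed from an uninjured one. The comparison used 7 of the 18 RNA-seq libraries of the series, 3 of FGF17 MI hearts at day 14 and 4 of sham hearts, taken by the column names of the deposited table, and all genes of that table. Mice were injected under the skin as newborns with adeno-associated virus (AAV) of serotype 9, which carried mouse Fgf17 or was the control vector. At 8 weeks of age the left anterior descending coronary artery was tied for good (the MI) or spared (the sham operation). The sham group thus differs from the FGF17 MI group in vector and in injury together, and there was no sham group with the Fgf17 vector. Both groups share the serotype, the route and the age at surgery. Of the other groups, 3 libraries of control-vector MI hearts at day 14 and 4 libraries of FGF17 MI hearts at day 3 are set beside the comparison. The labels name no strain, sex or vector promoter and no day for the sham hearts. Nor do they tell separate animals from repeat libraries of one heart, so p-values measure the spread between libraries, part of which may be technical.

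When a coronary artery is closed for good, the muscle it fed dies, inflammatory cells clear it, and fibroblasts then replace it with a scar of fibrillar collagens and the glycoproteins and enzymes that assemble them. The surviving cardiomyocytes often lower their genes for fatty acid oxidation, the main fuel pathway of the adult heart, and raise natriuretic peptides. FGF17 is a secreted fibroblast growth factor of the FGF8 subfamily, which signals through receptor tyrosine kinases to ERK, and ERK in turn induces its own inhibitors of the Sprouty and dual-specificity phosphatase families.

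Values are FPKM, in which fragment counts are divided by the length of the gene's transcript and by sequencing depth. Changes are differences of log2(FPKM + 0.5) ± standard error from a limma model of all 5 groups, so a change of a gene with low FPKM is understated. A gene was called higher or lower when its Benjamini-Hochberg adjusted p over all tested genes was under 0.05. The p-values are two-sided. Library numbers are those of the column names, sham 1, 2, 4 and 5 and FGF17 day 14 libraries 1, 3 and 4, and values by library are given in that order. Sequencing depth is unknown, because the table holds no counts. The 13 mitochondrially encoded proteins took 35.6% to 41.7% of the summed FPKM in sham libraries and 32.8%, 28.9% and 20.8% in FGF17 libraries 1, 3 and 4. FGF17 library 4 also had the lowest FPKM total of the series (301085, against up to 362004 in sham library 1). Across genes, Pearson's r of the log2 levels ran from 0.974 to 0.983 among the FGF17 libraries, from 0.983 to 0.986 among sham libraries and from 0.956 to 0.974 between the groups.

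The vector's own gene was as labelled. Fgf17 (GRCm38 chr14:70636203-70642268 on the minus strand, ENSMUSG00000022101.6) was listed at 0 in each of the 4 sham libraries and reached 49.7, 93.4 and 45.3 FPKM in the FGF17 libraries, with 0.254, 0 and 0 FPKM in the control-vector MI libraries of the same day. Every FGF17 library was far above every other one. The exact two-sided permutation p was 0.0571 against sham and 0.1 against control-vector MI, in each case the smallest that libraries in these numbers allow, and no fold is given against a group at 0. Troponin T, cardiac alpha-myosin and cardiac actin transcripts were abundant in every library, as the heart label requires (Tnnt2 772 to 901 FPKM in sham and 659 to 804 in FGF17 hearts).

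Of 12052 genes tested, 3211 were higher in FGF17 MI hearts at day 14 than in sham (26.6%) and 172 were lower (1.43%). The rises reached much further than the falls: 460 genes rose by at least 1 log2 and 48 by at least 2 log2, against 4 and 0 genes that fell that far. This split depends on how libraries are put on one scale. FPKM values were on the whole higher in the FGF17 libraries, with a median change over all genes of 0.21 log2, a ratio of 1.16. Median-of-ratios scaling, which sets that median to -0.0026, left 1454 genes higher (12.1%) and 1185 lower (9.83%), so that 55.1% of its calls were rises in place of 94.9%. With both scalings, 1454 genes were higher and 172 lower. Another 24 genes called with deposited FPKM had an estimate of the opposite sign after median-of-ratios scaling, whether or not it was called there. Rescaling each library to a total of 1000000 moved the split the other way, with 4654 genes higher and 75 lower. Leaving out FGF17 library 4, the one with the lowest mitochondrial share, gave 2122 higher (17.6%) and 116 lower (0.962%). List medians are therefore given below for both scalings. Control-vector MI hearts at day 14 differed from the same sham libraries at 4940 genes that were higher (41.0%) and 1085 that were lower (9.00%), and since these comparisons share the sham libraries their values are only set side by side.

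**Figure D1:**
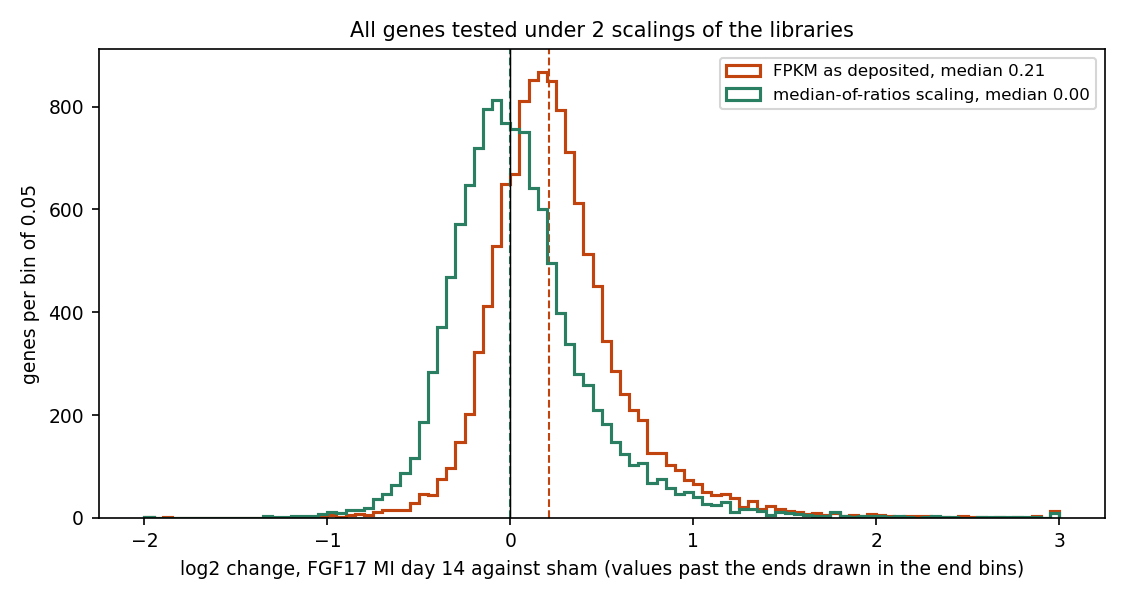
Distribution over all tested genes of the log2 change between FGF17 MI hearts at day 14 and sham hearts, in genes per bin, with FPKM as deposited (orange) and after median-of-ratios scaling (green). Dashed lines mark the medians, 0.21 and -0.0026 log2, and the right tail is longer than the left one with both scalings.

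The clearest remainder was scar matrix. All 20 collagen chain genes tested were higher in FGF17 MI hearts than in sham, against 26.6% of all tested genes, and every FGF17 library was above every sham library for all 20, as it was for 32.6% of all genes. The median change of the 20 genes was 1.76 log2 with deposited FPKM and 1.55 with median-of-ratios scaling, against 0.21 and -0.0026 for all genes. In control-vector MI hearts the median was 2.71 log2. Summed over the 20 genes, FPKM ran from 165 to 187 in sham, from 584 to 993 in FGF17 hearts and from 1010 to 1426 in control-vector MI hearts, and the 3 ranges do not overlap. Since the RNA comes from whole heart tissue, fewer cells of a type and less RNA per cell cannot be told apart here or in any list that follows. Among the fibrillar chains, Col3a1 (GRCm38 chr1:45311538-45349706 on the plus strand, ENSMUSG00000026043.18), the type III chain of young scar, was at 10.9, 10.6, 16.6 and 15.6 FPKM in sham and 194, 151 and 212 in FGF17 hearts, a rise of 3.75 ± 0.19 log2, adjusted p = 2.08e-09. Col1a1 (GRCm38 chr11:94936224-94953042 on the plus strand, ENSMUSG00000001506.10), the first chain of type I collagen, went from 8.2, 6.99, 9.56 and 9.86 to 90.6, 74.8 and 121 FPKM (3.37 ± 0.20 log2, adjusted p = 1.08e-08). Its partner chain Col1a2 went from 7.07, 7.71, 9.14 and 8.24 to 70.2, 55.9 and 85.5 FPKM (3.04 ± 0.16 log2, adjusted p = 3.81e-09). All 3 chains stood highest in FGF17 library 4 and lowest in library 3, and even the lowest FGF17 library had several times the sham level.

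Proteins that coat or organise collagen moved with it. Cthrc1 (GRCm38 chr15:39076932-39087121 on the plus strand, ENSMUSG00000054196.7), a secreted protein of activated fibroblasts, had the largest rise under the naming rule apart from Fgf17 itself. It was at 0.518, 0.101, 0.122 and 0.0789 FPKM in sham, 13.4, 10.1 and 11.4 in FGF17 hearts and 39.5, 26.4 and 25.4 in control-vector MI hearts (4.14 ± 0.21 log2, adjusted p = 2.08e-09 against sham). The sham libraries were close to background, and the FGF17 libraries were all below the control-vector MI libraries. Of 16 matricellular and glycoprotein genes, 16 rose, or 15 with median-of-ratios scaling (median 1.6 and 1.38 log2). Postn, periostin of activated fibroblasts, went from 7.98, 5.98, 4.5 and 5.94 to 77.4, 34.6 and 61.8 FPKM (3.10 ± 0.26 log2, adjusted p = 5.93e-07), with FGF17 library 3 lowest. Comp, cartilage oligomeric matrix protein, went from 2.51, 2.82, 2.45 and 3.43 to 33.7, 12.9 and 84.2 FPKM (3.37 ± 0.38 log2, adjusted p = 9.17e-06). FGF17 library 3 was far below library 4, while the control-vector MI libraries lay at 82.6, 84.2 and 69.8 FPKM. Spp1, osteopontin, made by macrophages as well as fibroblasts, went from 2.01, 4.08, 1.78 and 2.05 to 33.4, 28.9 and 18.4 FPKM (3.22 ± 0.26 log2, adjusted p = 4.13e-07). Here library 4 was the lowest of the FGF17 libraries. C1qtnf3, a secreted C1q-family protein, was listed at 0 in 3 sham libraries and at 0.0487 FPKM in the other one, and reached 8.36, 3.15 and 4.39 FPKM with FGF17. In control-vector MI hearts it had 20.1, 15.3 and 20.8 FPKM, above every FGF17 library.

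The enzymes and accessory proteins of the matrix followed. Of 18 genes of collagen processing and crosslinking, 17 rose (15 with median-of-ratios scaling), with a median of 1.08 log2 (0.86). Lox, the lysyl oxidase that crosslinks collagen and elastin, went from 2.84 ± 0.62 FPKM in sham (SD, n = 4) to 20.7 ± 5.54 (n = 3), a rise of 2.65 ± 0.22 log2, adjusted p = 4.87e-07. Its relatives Loxl1 and Loxl2 rose by 1.54 ± 0.17 and 1.61 ± 0.16 log2. Of 15 elastic fibre and microfibril genes, 14 rose with either scaling (median 1.42 and 1.17 log2). Eln, elastin itself, rose by 2.89 ± 0.31, the latent TGF-beta binding protein Ltbp2 by 2.96 ± 0.32 and Fbn1, fibrillin of the microfibril, by 1.62 ± 0.19 log2. Of 10 small leucine-rich proteoglycans, 8 rose (7), with Aspn, asporin, up by 2.02 ± 0.21 and Bgn, biglycan, by 1.58 ± 0.14 log2. Dcn, decorin, which is abundant in resting fibroblasts, had 145, 145, 118 and 142 FPKM in sham and 264, 197 and 175 in FGF17 hearts. It rose by 0.60 ± 0.15 log2 with deposited FPKM, but its adjusted p was 0.139 with median-of-ratios scaling.

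Matrix-degrading proteases and their inhibitors formed a smaller set of rises, 13 of 17 (9 with median-of-ratios scaling), with a median of 0.85 log2 (0.69). For this list and those that follow, 26.6% of all genes were higher (12.1%). The gelatinase gene Mmp2 rose from 14.9 ± 0.602 to 65.2 ± 16.5 FPKM (2.06 ± 0.15 log2, adjusted p = 2.18e-07). The membrane-type protease Mmp14 rose by 1.48 ± 0.12 log2, the macrophage elastase Mmp12 by 2.13 ± 0.23 and the inhibitor Timp1 by 1.99 ± 0.25. Of 16 genes of TGF-beta signalling, the pathway that drives fibroblasts to make collagen, 9 rose (7), with a median of 0.49 log2 (0.27). The ligands Tgfb3 and Tgfb1 were up by 1.36 ± 0.18 and 0.54 ± 0.10 log2. The ligand Tgfb2 was at 4.02 ± 0.537 FPKM in sham and 5.27 ± 0.857 in FGF17 hearts (adjusted p = 0.126). Secreted Wnt modulators were called higher in 4 of 7 genes with either scaling (median 0.77 and 0.56 log2). Sfrp2, a frizzled-related protein of scar fibroblasts, rose from 2.16, 1.69, 2.13 and 2.16 to 40.5, 21 and 45.5 FPKM (3.77 ± 0.28 log2, adjusted p = 1.77e-07), and its relative Sfrp1 rose by 1.97 ± 0.16 log2. Another relative, Sfrp5, was at 2.08, 2.08, 3.88 and 2.09 FPKM in sham and 0.87, 2.38 and 3.27 with FGF17 (adjusted p = 0.565). In the insulin-like growth factor axis 7 of 13 genes rose, or 5 with median-of-ratios scaling and 5 without FGF17 library 4. The median was 0.54 log2 (0.29). Among the 7 were the growth factor Igf1, up by 0.81 ± 0.14, and the binding protein Igfbp7, up by 1.48 ± 0.15 log2.

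Contractile genes of smooth muscle and myofibroblasts were called higher in 7 of 14 cases, against 26.6% of all genes. The count was 2 of 14 with median-of-ratios scaling (12.1% of all genes) and 2 of 14 without FGF17 library 4 (17.6%), both near the share of all genes. Acta2, smooth muscle actin, had 93.5, 103, 123 and 132 FPKM in sham and 155, 154 and 183 in FGF17 hearts (0.55 ± 0.15 log2, adjusted p = 0.0132), a call lost in both of those settings. Tagln, transgelin, had a change of 0.44 ± 0.15 log2, a call also lost when any library other than sham 5 was left out, and without sham library 1 the list had 4 calls. Cald1, caldesmon, rose by 0.90 ± 0.17 log2 and kept its call in every alternative tried. Fibroblast markers rose in 14 of 14 cases (13). This list is not one of identity genes alone, and it holds the matrix genes Col1a1 and Dcn, which are also counted above. Pdgfra, the receptor that marks cardiac fibroblasts, went from 6.39, 6.38, 6.72 and 7.67 to 11.5, 10.5 and 12.3 FPKM (0.71 ± 0.12 log2). The transcription factor Tcf21 rose by 0.75 ± 0.12 and the matrix gene Dpt, dermatopontin, by 1.14 ± 0.13 log2. The summed FPKM of these 14 markers was 642 to 705 in sham, 1092 to 1380 in FGF17 hearts and 1205 to 1324 in control-vector MI hearts, and the part of fibroblast number in the matrix rises was not tested. Emp1, a membrane protein gene of several growing cell types, had an uneven sham group, 2.76, 2.64, 1.7 and 18.6 FPKM, with 52.7, 38.3 and 38.1 FPKM in FGF17 hearts (3.24 ± 0.65 log2, adjusted p = 0.00149).

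**Figure D2:**
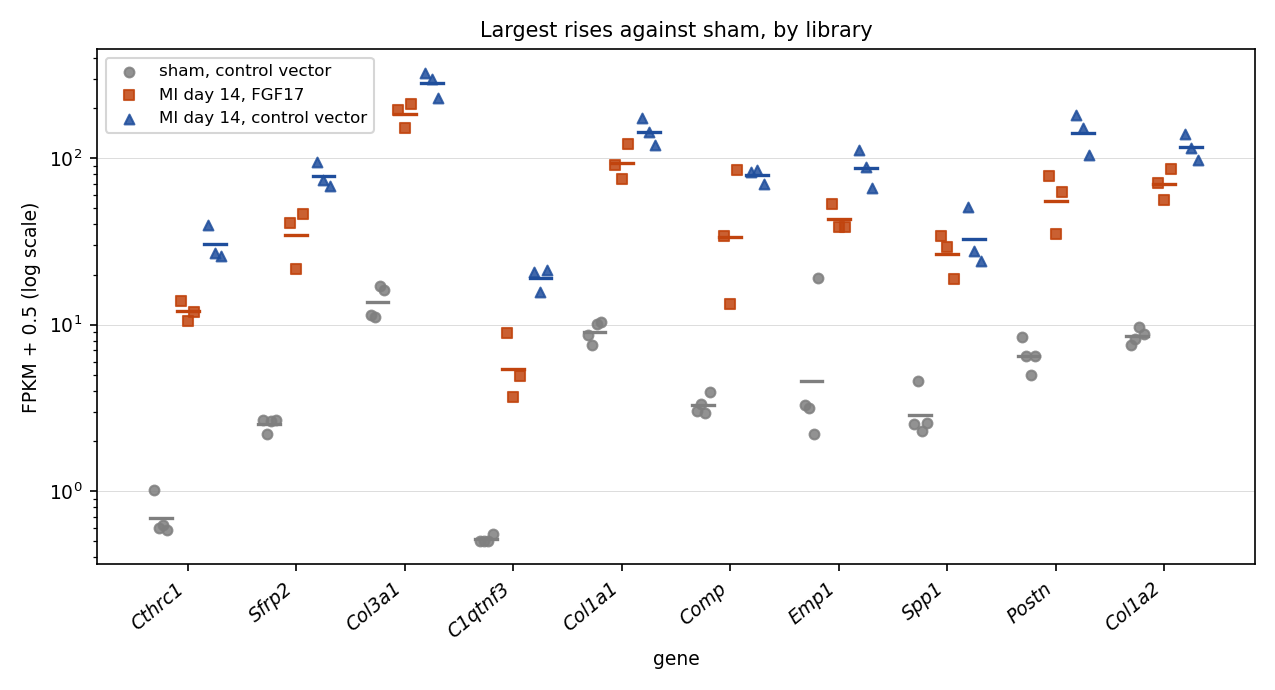
FPKM + 0.5 on a log axis for 10 of the genes with the largest rises against sham, 1 point per library, with a line at the mean of the log2 values of each group: sham (grey circles, n = 4), FGF17 MI day 14 (orange squares, n = 3) and control-vector MI day 14 (blue triangles, n = 3). The FGF17 libraries are above all sham libraries for each gene, as the naming rule requires. For Cthrc1, C1qtnf3, Sfrp2 and Postn they are also below all control-vector MI libraries.

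Complement, macrophage and antigen-presentation transcripts were the other large group of rises. Of 16 complement genes, 14 were higher than in sham and none lower (12 with median-of-ratios scaling), with a median of 1.25 log2 (1.02). The recognition subunit gene C1qa, made by macrophages, went from 39.8, 49.1, 47.9 and 43.6 to 106, 109.6 and 115 FPKM (1.28 ± 0.14 log2, adjusted p = 7.06e-06). C3, the component on which all routes converge, rose by 1.26 ± 0.21 log2, C4b by 1.76 ± 0.17 and Cfb, factor B of the alternative route, by 2.26 ± 0.34. The 3 FGF17 libraries agreed closely in C1qa, and the control-vector MI libraries lay higher at 197, 129.8 and 147 FPKM.

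Macrophage markers were called in 13 of 15 genes (9), with a median of 1.01 log2 (0.80), and their summed FPKM was 249 to 283 in sham, 589 to 660 with FGF17 and 733 to 1100 in control-vector MI hearts. Adgre1, which encodes the macrophage antigen F4/80, was at 4, 5.1, 5.46 and 5.14 FPKM in sham and 13.6, 13 and 13.5 in FGF17 hearts (1.36 ± 0.13 log2, adjusted p = 1.43e-06). Lyz2, lysozyme of myeloid cells, rose from 153 ± 8.72 to 381 ± 34.6 FPKM (1.31 ± 0.13 log2), the lysosomal membrane protein Cd68 by 1.01 ± 0.23 and the lipid receptor Trem2 by 1.64 ± 0.17 log2. Of 17 lysosome and phagocytosis genes 15 rose (13). The protease gene Ctss rose from 26 ± 0.595 to 109 ± 13.2 FPKM (2.04 ± 0.14 log2) and Ctsk, the collagen-degrading cathepsin, by 2.24 ± 0.23 log2. Ctsd, another lysosomal protease, was at 244 ± 18.8 and 275 ± 46.7 FPKM (adjusted p = 0.217, called higher without FGF17 library 1). The MHC class II genes, which present peptides to T helper cells, were higher in 8 of 9 cases (7). H2-Aa went from 18.9, 15.9, 26.9 and 28.2 to 48.6, 33.7 and 65 FPKM (1.10 ± 0.26 log2, adjusted p = 0.00502). The invariant chain Cd74 rose by 0.86 ± 0.26 log2, a call lost with median-of-ratios scaling (adjusted p = 0.0936) and without FGF17 library 1 or 4 or sham library 1 or 2. For all 9 of these genes FGF17 library 3 was the lowest of its group.

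Interferon-stimulated genes also remained above sham, in 14 of 19 cases with none lower, or 9 with median-of-ratios scaling and 9 without FGF17 library 3. The median change was 0.84 log2 (0.60). Isg15, a ubiquitin-like protein, went from 9.12, 7.59, 9.19 and 7.61 to 21.3, 25.9 and 15.4 FPKM (1.24 ± 0.24 log2, adjusted p = 0.00114). Oas1a, an antiviral nucleotide synthetase, rose by 1.39 ± 0.17, Ifit3 by 0.96 ± 0.20 and Ifit1 by 0.84 ± 0.23 log2. The Ifit1 call was lost with median-of-ratios scaling and without FGF17 library 3. Library 3, which also had the most Fgf17, was the highest of the FGF17 libraries in 15 of the 19 genes, and whether the dose of Fgf17 has a part in this was not tested.

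Of 23 chemokine and cytokine genes of acute inflammation, 5 were higher than in sham and 1 was lower, a share of higher genes near the 26.6% of all tested genes. The monocyte chemokine Ccl8 was higher at 16.2, 15.4 and 6.72 FPKM against 1.35, 1.94, 0.995 and 2.55 in sham (2.54 ± 0.41 log2, adjusted p = 0.000267). Ccl2, the main monocyte attractant after injury, was lower at 4.39, 4.52 and 3.34 against 7.49, 4.94, 7.28 and 7.37 FPKM (-0.66 ± 0.21 log2, adjusted p = 0.0266). That call was lost without FGF17 library 4 or without sham library 1, 4 or 5. Il6 had 0.0568, 0.108, 0 and 0 FPKM in sham and 0.293, 0.078 and 0.122 in FGF17 hearts (adjusted p = 0.538). None of 10 neutrophil markers was called by limma with either scaling, and 0 had an unadjusted p under 0.05. The neutrophil alarmin S100a8 had 6.18, 3.38, 2.78 and 10.2 FPKM in sham and 9.58, 8.36 and 5.29 with FGF17, and its partner S100a9 had 11.5, 5.33, 1.91 and 13.1 in sham and 8.23, 14.9 and 4.24 with FGF17. The groups overlapped for both. Jchain, the joining chain of secreted antibodies, was among the largest rises, from 0.483, 0.104, 0.467 and 0.543 to 9.04, 6.39 and 17.9 FPKM (3.60 ± 0.69 log2, adjusted p = 0.00106). T and NK cell markers were higher in 5 of 8 genes, or 3 without sham library 1, and B cell markers in 1 of 4. All were at low FPKM, summed 7.53 to 9.47 and 8.89 to 24.7 in FGF17 hearts against 2.26 to 3.5 and 1.03 to 3.14 in sham.

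Cell cycle transcripts were low but still raised. Of 27 cell cycle genes, 20 were higher than in sham, none lower, and 18 remained called with median-of-ratios scaling and 17 without FGF17 library 4, with a median of 0.59 log2 (0.54). The proliferation marker Mki67 went from 0.144, 0.218, 0.089 and 0.137 to 1.17, 0.905 and 0.859 FPKM (1.19 ± 0.16 log2, adjusted p = 4.14e-05). Top2a, the topoisomerase that untangles chromosomes before division, went from 0.115, 0.182, 0.0629 and 0.106 to 0.993, 0.674 and 0.859 FPKM (1.12 ± 0.17 log2). Cdk1, the kinase that starts mitosis, went from 0.0763, 0.0669, 0.179 and 0 to 0.467, 0.427 and 0.465 FPKM (0.72 ± 0.14 log2). All 3 genes were above sham in each FGF17 library, at no more than 1.17 FPKM, where the added 0.5 FPKM damps the change. The cyclin gene Ccna2 rose by 1.43 ± 0.15 log2. Control-vector MI hearts held 2.95, 3.19 and 1.82 FPKM of Mki67, and 26 of the 27 genes were higher there than in sham, against 41.0% of all genes, with a median of 1.22 log2.

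Since these genes moved together, the stretch of 150 bases just before their annotated starts was read from the RefSeq promoters of GRCm38.p6, of which 22862 symbols have a single entry. It is printed for the 3 genes above because the CCAAT box, the binding sequence of the factor NF-Y, is a shared feature of cell cycle promoters. Sequences run 5′ to 3′ on the strand of the gene, and capitals mark CCAAT or its reverse complement ATTGG. Mki67 lies at chr7:135716380-135716529, Top2a at chr11:99024190-99024339 and Cdk1 at chr10:69352913-69353062, all on the minus strand.
Mki67: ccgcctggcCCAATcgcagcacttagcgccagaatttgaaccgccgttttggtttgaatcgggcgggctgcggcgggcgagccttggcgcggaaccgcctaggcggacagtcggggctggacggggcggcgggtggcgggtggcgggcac
Top2a: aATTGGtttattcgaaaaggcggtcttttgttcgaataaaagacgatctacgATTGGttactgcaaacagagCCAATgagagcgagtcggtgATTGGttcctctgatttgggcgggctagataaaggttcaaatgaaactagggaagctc
Cdk1: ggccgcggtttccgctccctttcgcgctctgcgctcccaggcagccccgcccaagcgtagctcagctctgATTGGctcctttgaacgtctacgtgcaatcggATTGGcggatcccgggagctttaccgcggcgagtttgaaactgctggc
The Top2a stretch holds 4 matches, Cdk1 2 and Mki67 1. Shares of promoters were counted over the whole entry, from 250 bases before to 50 after the start. Of the 27 cell cycle genes 21 had a single promoter entry, and 18 of those (85.7%) held CCAAT on either strand, against 38.2% of all 22862 promoters and 39.3% of the 7284 tested genes with an entry. Neither the TATA box nor the ERR or PPAR element had a match in the cell cycle list, and 7.41%, 0.233% and 0.0137% of tested genes held them. With shares this low for ERR and PPAR, their absence from 21 promoters is no contrast. GCGTG had a match in 57.1% (52.1% of tested genes) and CATTCC in 4.76% (11.6%). For the E2F site, searched as TTTGGCGC and as TTTCGCGC on either strand, each form was in 3 of the 21 cell cycle promoters (14.3%), against 1.03% and 0.645% of tested genes and 0.503% and 0.328% of all promoters. Among genes called higher against sham with both scalings, 342 of 870 promoters held CCAAT (39.3%), the same share as in all tested genes. A match is a description of the sequence and says nothing on its use in these hearts.

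Fatty acid oxidation genes were lower as a list. Of 26 genes, 15 were lower in FGF17 MI hearts than in sham and none higher, where 1.43% of all genes were called lower. The count was 19 with median-of-ratios scaling, 11 without FGF17 library 4, 8 without library 1 and 8 when each library was rescaled to a total of 1000000, and a block for library number gave 9. The median change was -0.35 log2 (-0.60), against -0.81 in control-vector MI hearts, where 23 of 26 fell against 9.00% of all genes. Summed FPKM ran from 7462 to 7673 in sham, 5902 to 6199 in FGF17 hearts and 4220 to 4951 in control-vector MI hearts. Acadm, the medium-chain acyl-CoA dehydrogenase (GRCm38 chr3:153922357-153944632 on the minus strand, ENSMUSG00000062908.12), was at 301, 316, 351 and 327 FPKM in sham and 239.8, 282 and 244 in FGF17 hearts (-0.34 ± 0.09 log2, adjusted p = 0.00737). Every FGF17 library was below every sham library, though the call was lost with totals rescaled to 1000000. Hadha, of the trifunctional protein of long-chain oxidation, went from 141, 165, 159 and 159 to 107, 117 and 123 FPKM (-0.43 ± 0.12 log2, adjusted p = 0.0175), a call lost without FGF17 library 1. Cpt1b, which carries long-chain acyl groups towards the mitochondrial matrix in muscle, went from 115 ± 6.83 to 86.5 ± 10.7 FPKM (-0.42 ± 0.15 log2, adjusted p = 0.0433), a call lost when any single library was left out. Acot2, a mitochondrial thioesterase, fell by 0.50 ± 0.14 on the log2 scale, a call lost without FGF17 library 1, and it may share reads with its near-identical neighbour Acot1.

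The lipid droplet and oxygenated lipid genes held some of the larger single falls. G0s2, the inhibitor of the triglyceride lipase ATGL, was the gene with the largest fall under the naming rule, from 142, 108, 197 and 226 to 62.1, 87.4 and 80.7 FPKM (-1.09 ± 0.22 log2, adjusted p = 0.0015). The lipase gene itself, Pnpla2, was at 131, 131, 157 and 143 FPKM in sham and 94.9, 107 and 131 in FGF17 hearts (adjusted p = 0.11, 0.0114 with median-of-ratios scaling). Ephx2, the soluble epoxide hydrolase that breaks down epoxy fatty acids, fell from 159, 192, 184 and 188 to 93.2, 128 and 109 FPKM (-0.72 ± 0.11 log2, adjusted p = 0.000107). Its control-vector MI libraries were lower still at 63.8, 67.2 and 68.1. Of 13 lipolysis and lipid droplet genes 3 were lower, and 5 with median-of-ratios scaling. Ppp1r3b, which brings a phosphatase to glycogen, fell by 0.73 ± 0.15 on the log2 scale, and Pla2g12a, a secreted phospholipase, by 0.86 ± 0.20. In ketone body metabolism Oxct1, which starts ketone use in muscle, rose by 0.29 ± 0.09 log2 with deposited FPKM and had an adjusted p of 0.808 with median-of-ratios scaling. That call was also lost without FGF17 library 3 or 4 or sham library 1 or 2. Acat1 of the same list fell by 0.34 ± 0.08 on the log2 scale (166, 169, 171 and 166 FPKM in sham, 129, 146 and 123 with FGF17).

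For the rest of oxidative metabolism the number of calls turned on the scaling. Of 24 genes of the TCA cycle and pyruvate entry, 1 was lower with deposited FPKM, 6 without FGF17 library 3 and 19 with median-of-ratios scaling (median -0.16 and -0.41 log2). Of 36 nuclear complex I genes 3 were lower (18 with median-of-ratios scaling, 0 without FGF17 library 4), and of 36 nuclear genes of complexes III to V 1 was lower (25). Leaving out single libraries gave 0 to 6, 0 to 4 and 0 to 3 calls in these lists. The pyruvate dehydrogenase subunit gene Pdha1 was the TCA call, at 324, 349, 357 and 355 FPKM in sham and 290.1, 319 and 284 in FGF17 hearts (-0.22 ± 0.08 log2, adjusted p = 0.0448). It was lost without FGF17 library 1 or 4 or sham library 2, 4 or 5. Citrate synthase (Cs) was at 174 ± 13.7 FPKM in sham and 156 ± 7.35 with FGF17 (adjusted p = 0.151 and 0.00251 with the 2 scalings). Ndufa12 of complex I fell by 0.47 ± 0.14 on the log2 scale, and Uqcrb of complex III by 0.30 ± 0.10. Both calls were lost without FGF17 library 4, the second also without sham library 1. Of 17 genes of branched-chain amino acid breakdown 1 was lower, Aldh6a1 of valine breakdown (44.2, 46.1, 44.8 and 43.8 FPKM in sham, 35.4, 37.5 and 32.9 with FGF17, adjusted p = 0.02), a call lost without FGF17 library 4. After median-of-ratios scaling 7 were lower. Of 21 glycolysis and glycogen genes 4 were higher and 1 was lower, or 1 and 5 after median-of-ratios scaling. The lower one was Fbp2, the muscle fructose bisphosphatase (31, 41.8, 39.5 and 29.6 FPKM in sham, 17.2, 30.1 and 22.8 with FGF17, adjusted p = 0.0375), lost without FGF17 library 1 or 4 or sham library 2 or 4. Without FGF17 library 4 or sham library 1 or 2 the list had 1 rise.

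The mitochondrial genome's own transcripts were lower in 7 of 13 cases, and in 2 of 13 without FGF17 library 4 (9 with median-of-ratios scaling). For mt-Co1, a core subunit of complex IV, the sham libraries had 27210.0, 23675, 22710.0 and 22754 FPKM. The FGF17 libraries had 19230.0, 17059 and 13898 FPKM (adjusted p = 0.00799, and 0.0581 without library 4). mt-Nd3, a complex I subunit, fell by 0.81 ± 0.18 on the log2 scale and stayed called without library 4. mt-Atp8, whose sequence overlaps mt-Atp6, fell by 0.72 ± 0.22 on the log2 scale with all libraries, a call lost without library 4 or without sham library 1. Library 4 was the lowest FGF17 library for all 13 genes, and library 1 the highest for 12. Of the regulators, Tfb2m, a factor that starts mitochondrial transcription, fell from 31.6, 33.4, 29.4 and 29.3 to 22.5, 24.6 and 19 FPKM (-0.49 ± 0.10 log2, adjusted p = 0.00168). The coactivator Ppargc1a was at 28, 53.8, 25.4 and 30.9 FPKM in sham and 21.4, 39.5 and 26.3 with FGF17 (adjusted p = 0.566). The fatty acid receptor Ppara was at 4.7 ± 0.386 and 5.41 ± 1.28 FPKM (SD, n = 4 and 3) and the orphan receptor Esrra at 31.8 ± 5.18 and 33.8 ± 9.57 (adjusted p = 0.45 and 0.84). The list of these regulators held 15 tested genes, 1 higher and 1 lower (1 and 6 with median-of-ratios scaling). Its median was -0.096 log2 (-0.34). Of all genes 26.6% were higher and 1.43% lower (12.1% and 9.83%). Klf15, a glucocorticoid-responsive factor of cardiac metabolism, was the 1 gene of this list that rose, by 0.81 ± 0.17 log2.

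**Figure D3:**
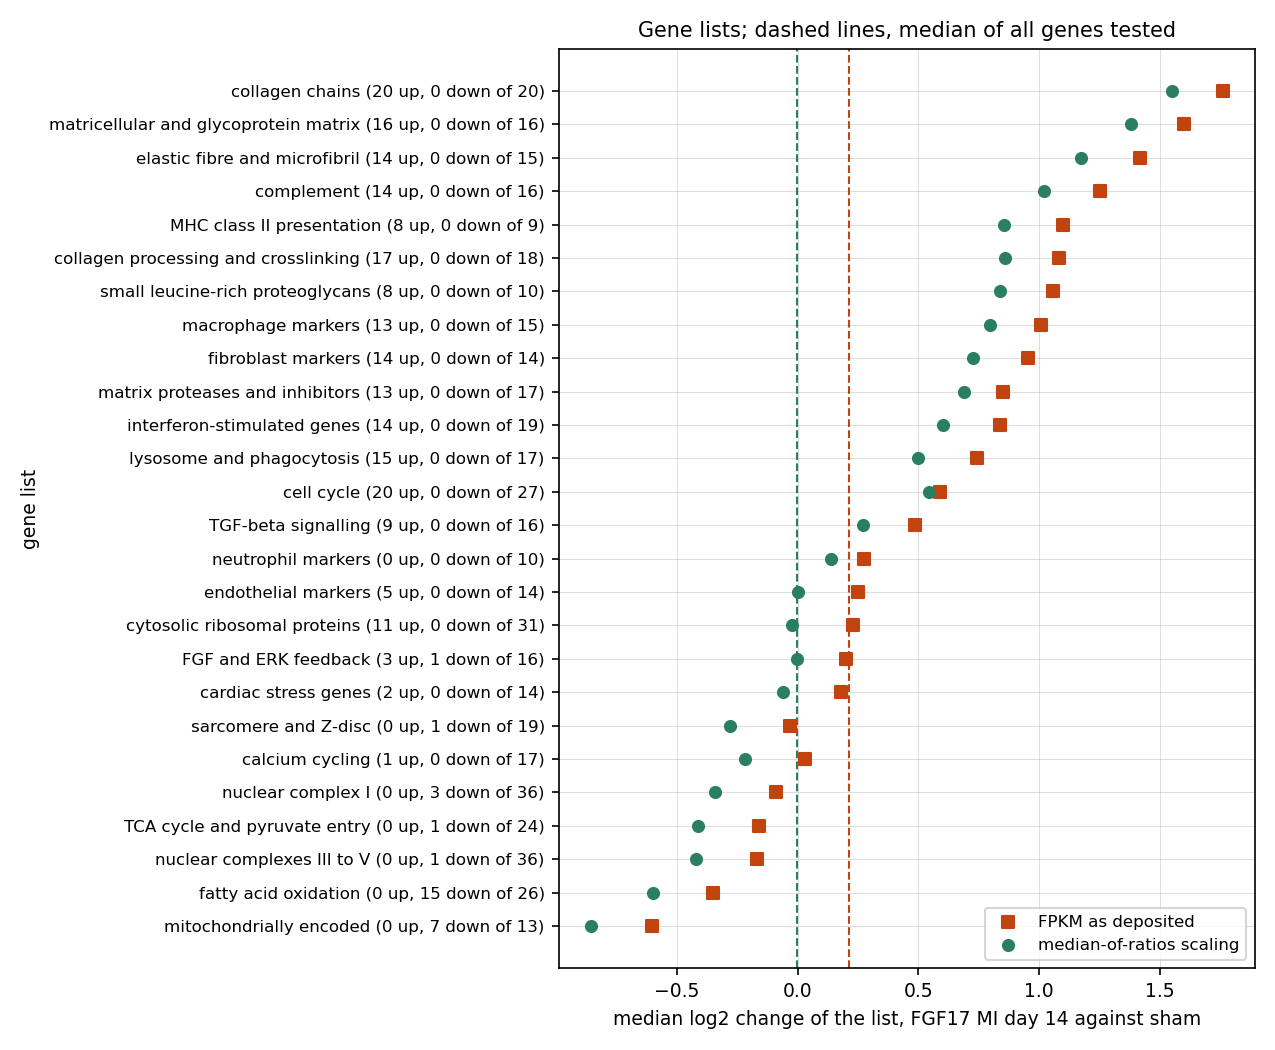
Median log2 change of each gene list between FGF17 MI hearts at day 14 and sham hearts, with FPKM as deposited (orange squares) and with median-of-ratios scaling (green circles), and in brackets the members called higher and lower with deposited FPKM. Dashed lines are the medians of all tested genes, 0.21 and -0.0026. Matrix, complement and macrophage lists lie to the right of both lines, while the fatty acid oxidation list, at -0.35 and -0.60, lies to their left.

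Contractile, calcium cycling and stress lists of the cardiomyocyte gave 0 to 2 calls each against sham with deposited FPKM. None of 8 cardiomyocyte markers was called by limma with deposited FPKM (0 had an unadjusted p under 0.05, and 3 were lower with median-of-ratios scaling). Their summed FPKM was 7512 to 8894 in sham, 7447 to 8765 in FGF17 hearts and 6133 to 7350 in control-vector MI hearts. Of 19 sarcomere and Z-disc genes 1 was lower, the Z-disc gene Ldb3 (109, 125, 128 and 134 FPKM in sham, 98.2, 105 and 98.1 with FGF17, adjusted p = 0.0417). That call was lost when any library other than sham 1 was left out. With median-of-ratios scaling 7 were lower. Myh6, the adult cardiac myosin, was at 1502, 1697, 2004 and 1833 FPKM in sham and 1549.8, 1671 and 2221 in FGF17 hearts (adjusted p = 0.885). Myh7, the slow myosin that failing mouse hearts raise, was at 153, 123, 94.1 and 114 FPKM in sham and 69.5, 52.4 and 173 with FGF17 (adjusted p = 0.321). FGF17 library 4 lay above all sham libraries and the other two FGF17 libraries below all of them, and without library 4 Myh7 was lower (adjusted p = 0.0344). Among calcium cycling genes, Atp2a2, the pump that refills the sarcoplasmic reticulum, was at 1025, 1163, 1159 and 1207 FPKM in sham and 942, 1166 and 1102 with FGF17 (adjusted p = 0.507, 0.0297 with median-of-ratios scaling). The release channel Ryr2 was at 31.1, 34.8, 33.2 and 35.5 FPKM in sham and 31.8, 31.7 and 39.9 with FGF17 (adjusted p = 0.89).

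The natriuretic peptide genes did not pass the test against sham. Nppa had 2011, 1679, 1264 and 1672 FPKM in sham and 1533, 1783 and 1922 in FGF17 hearts (adjusted p = 0.732), with 3383, 3365 and 2500.1 in control-vector MI hearts. The FGF17 libraries lay within the sham range, and the control-vector MI libraries above both. Nppb was at 565 ± 115 FPKM in sham, 580.0 ± 67.2 with FGF17 and 615 ± 112 in control-vector MI hearts (SD, n = 4, 3 and 3), and none of its comparisons among these groups passed the test. A p above the threshold does not show that levels were equal: the standard error of the Nppa change against sham was 0.18 log2. In the list of 14 cardiac stress genes 2 rose against sham, where 26.6% of all genes did. Over the alternatives tried 2 to 5 rose and 0 to 1 fell. In control-vector MI hearts 8 of the 14 rose, where 41.0% of all genes did. One of the 2 rises with FGF17 was Sprr1a, a small proline-rich protein of stressed cardiomyocytes, from 0.936, 0.49, 0 and 0 to 5.99, 1.72 and 5.19 FPKM (2.49 ± 0.36 log2, adjusted p = 9.9e-05), a change that depends on the added 0.5 FPKM. Ace, angiotensin-converting enzyme, rose from 8.03, 7.59, 8.09 and 7.83 to 24.4, 19.9 and 32.2 FPKM (1.6 ± 0.14 log2, adjusted p = 1.07e-06). Corin, the protease that activates natriuretic peptides, fell by 0.30 ± 0.10 on the log2 scale, a call lost without FGF17 library 1 or any one sham library. The potassium channel gene Kcna5 rose by 0.92 ± 0.17 log2, whereas Kcnip2, a subunit of the transient outward current, was at 24.9 ± 2.34 and 23.8 ± 3.75 FPKM (adjusted p = 0.776).

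Of 16 feedback genes downstream of FGF receptors and ERK, 3 were higher than in sham and 1 was lower, where 26.6% and 1.43% of all genes were. After median-of-ratios scaling the counts were 2 and 2, and leaving out sham library 4 gave 5 and 1. Over all alternatives tried 2 to 8 were higher and 0 to 2 lower. The median was 0.20 log2, against 0.21 for all genes. Spry1, a Sprouty inhibitor, rose from 6.92, 8.32, 9.55 and 7.06 to 14, 12.5 and 14.2 FPKM (0.74 ± 0.14 log2, adjusted p = 0.000785). Spry2 had 8.56, 7.26, 10.7 and 9.59 FPKM in sham and 10.6, 10.7 and 11 with FGF17 (adjusted p = 0.109). Spry4 had 3.45, 2.64, 4.21 and 3.57 FPKM in sham and 3.65, 4 and 3.92 with FGF17 (adjusted p = 0.43). The ERK phosphatase Dusp6 had 8.2, 7.17, 13.2 and 7.41 FPKM in sham and 12.4, 12 and 12 with FGF17 (adjusted p = 0.0557), with sham library 4 above all FGF17 libraries. The nuclear ERK phosphatase Dusp5 was lower, at 1.58, 2.7 and 2.31 FPKM against 3.65, 3.53, 2.92 and 3.23 (-0.53 ± 0.15 log2, adjusted p = 0.0171). Its call was lost without FGF17 library 1, and those of Dusp6 and Spry2 appeared without sham library 4, which had the highest sham value of both. Of the receptors, Fgfr1 rose from 3.74, 3.69, 3.93 and 4.11 to 6.82, 7.03 and 9.48 FPKM (0.91 ± 0.13 log2, adjusted p = 8.09e-05), with 9.36, 9.58 and 7.33 FPKM in control-vector MI hearts. Fgf17 and Fgfr1 are among the 5 of 12 tested ligand and receptor genes that were higher than in sham (4, and 2 lower ones, after median-of-ratios scaling). Immediate early genes were called by limma in 0 of 12 cases, and 2 had an unadjusted p under 0.05. Fos was at 2.88, 1.52, 5.9 and 2.4 FPKM in sham and 1.66, 1.94 and 1.78 with FGF17. Without sham library 4 the list had 4 genes higher, and without sham library 2 it had 2 lower.

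Markers of vessels and other cells were also counted. Of all genes 26.6% were higher with deposited FPKM and 12.1% with median-of-ratios scaling. Endothelial markers were called in 5 of 14 genes with deposited FPKM, where 1 rose and 1 fell after median-of-ratios scaling, and in 1 without FGF17 library 4. Leaving out other single libraries gave 2 to 3. Vwf, von Willebrand factor, rose from 4.3, 6.56, 4.86 and 4.69 to 8.9, 8.93 and 13.9 FPKM (0.97 ± 0.17 log2, adjusted p = 0.000457) and kept its call throughout. The calls of the junction genes Pecam1 (0.30 ± 0.10 log2) and Cdh5 (0.31 ± 0.09 log2) were lost with median-of-ratios scaling and without FGF17 library 1 or 4 or sham library 4. The receptor gene Kdr was at 24.2 ± 2.98 and 27.7 ± 2.19 FPKM (adjusted p = 0.127, called without sham library 4). Markers of adipocytes (10 genes), erythroid cells (8), atrium (10) and skeletal muscle (7) had 0 limma calls with deposited FPKM, and 2, 1, 1 and 1 of them had an unadjusted p under 0.05. Their summed FPKM in FGF17 hearts was 228 to 281, 3925 to 4212, 2139 to 2653 and 341 to 412. In sham it was 204 to 238, 1767 to 4015, 1915 to 2785 and 339 to 375. In control-vector MI hearts these 4 lists had 7 of 10, 6 of 8, 4 of 10 and 5 of 7 genes above sham. There 41.0% of all genes were higher, and the atrial count is near that share. No lung epithelial marker passed the filter on low values, and their sum was 0 in FGF17 libraries 3 and 4 and 20.4 FPKM in library 1, against 0 to 4.83 in sham. Lymphatic markers were higher in 4 of 5 genes, and 3 were higher and 1 lower after median-of-ratios scaling. Dendritic, mast, mural, epicardial, Schwann and cartilage or bone markers had 1 call each, a rise, of 4, 5, 10, 10, 5 and 3 genes. Counts this small are near or below the share of all genes. The mast, mural, epicardial and Schwann calls were lost with median-of-ratios scaling, and the mast and mural ones also without FGF17 library 4. The 1 thymus marker tested was not called. Of 31 cytosolic ribosomal protein genes 11 were higher with deposited FPKM and none with median-of-ratios scaling, where 1 was lower, and leaving out single libraries gave 5 to 9.

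The remaining falls named by the rule were of mixed function. Cdip1, a target of the tumour suppressor p53, went from 10.1, 9.76, 11.2 and 11.9 to 4.6, 5.3 and 5.78 FPKM (-0.98 ± 0.20 log2, adjusted p = 0.00178), with no overlap, as the rule requires. Meig1, known from male germ cells, fell from 6.12, 7.85, 4.29 and 4.41 to 2.52, 3.62 and 1.33 FPKM (-1.08 ± 0.26 log2, adjusted p = 0.00507). Golga4, a golgin, fell by 0.74 ± 0.15 on the log2 scale, the amylase gene Amy1 by 0.79 ± 0.18 and Vps25, part of the complex that sorts receptors to lysosomes, by 0.78 ± 0.22, the last a call lost without FGF17 library 1. Nup62, a nuclear pore protein, was called through FGF17 library 4. It had 9.64, 9.89, 11.1 and 9.85 FPKM in sham and 8.44, 8.72 and 2.7 in FGF17 hearts, and its adjusted p was 0.132 without that library. The call was also lost without any one sham library. Nqo1, a quinone reductase controlled by Nrf2, fell by 0.69 ± 0.18 on the log2 scale (adjusted p = 0.00804, and 0.0534 without library 4). Hmox1, haem oxygenase, also under Nrf2, had a change of 0.57 ± 0.19 log2 (adjusted p = 0.0357, 0.245 with median-of-ratios scaling). Its call was also lost without FGF17 library 1 or 3 or sham library 1, 4 or 5. The clock gene Per1 rose by 1.22 ± 0.29 log2, 1 of 3 rises among 13 clock genes. Other signalling and stress lists are given by their counts, where 26.6% of all genes were higher and 1.43% lower with deposited FPKM. Of 10 hypoxia genes 4 were higher (2 higher and 2 lower after median-of-ratios scaling), and of 17 unfolded protein response genes 2 were higher (1 and 2). Of 14 Nrf2 defence genes 2 were higher and 2 lower (1 and 6), and of 12 adrenergic genes 2 were higher and 1 lower (0 and 3). Of 18 ion channel genes 2 were higher (1 and 3). Of 14 genes of angiotensin, endothelin and natriuretic signalling 4 were higher and 1 lower (2 and 1), and of 9 ubiquitin ligase genes 2 were higher (0 and 1). Genes with near-identical copies in the genome, here C4b, Lyz2, Ccl8, Acot2, Amy1 and Hist1h2ap, may share reads with them, and the labels do not say whether strand was used in counting.

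The 3 FGF17 libraries were not alike in matrix level. Library 3 was the lowest of the group for 20 of 20 collagen chains with either scaling, where it was the lowest for 34.3% of all tested genes (30.3% with median-of-ratios scaling), and library 4 was the highest for 20 (18), where it was the highest for 48.4% of all tested genes (37.7%). The mean log2 level of the list above the sham mean was 2.01 in library 1, 1.5 in library 3 and 2.35 in library 4. The order was not that of every list: for fatty acid oxidation library 1 was the lowest in 18 of 26 genes (15), for interferon-stimulated genes library 4 in 13 of 19 (16), and complement and macrophage lists had no library that led. Single genes also varied widely among the FGF17 libraries, as the naming rule, which picks genes by that spread, requires. Gpr146, a G protein-coupled receptor gene, had 9.61, 0.221 and 8.72 FPKM in the FGF17 libraries against 8.64, 9.04, 7.11 and 8.37 in sham. Tmem127 had 11, 11.8 and 0.624 FPKM and Smim15 had 12.8, 22 and 1.9. The transcription factor Nfix took low and high values in both groups, 2.98, 3.21, 17.3 and 16.9 FPKM in sham and 19.1, 3.37 and 24.8 with FGF17. Nrgn had 6.64, 0.815, 0.77 and 11.7 FPKM in sham and 1.96, 5.62 and 19.4 with FGF17. Bola1 had 2.08, 2, 2.13 and 13.9 FPKM in sham and 16.1, 1.64 and 15 with FGF17. Kctd12 was listed at 0 in 2 sham libraries and in FGF17 library 4. Thbs4, a thrombospondin of stressed muscle and matrix, was at 17.4, 3.92 and 27.9 FPKM, all above 2.67, 2.06, 1.93 and 2.55 in sham (2.23 ± 0.41 log2, adjusted p = 0.000779).

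**Figure D4:**
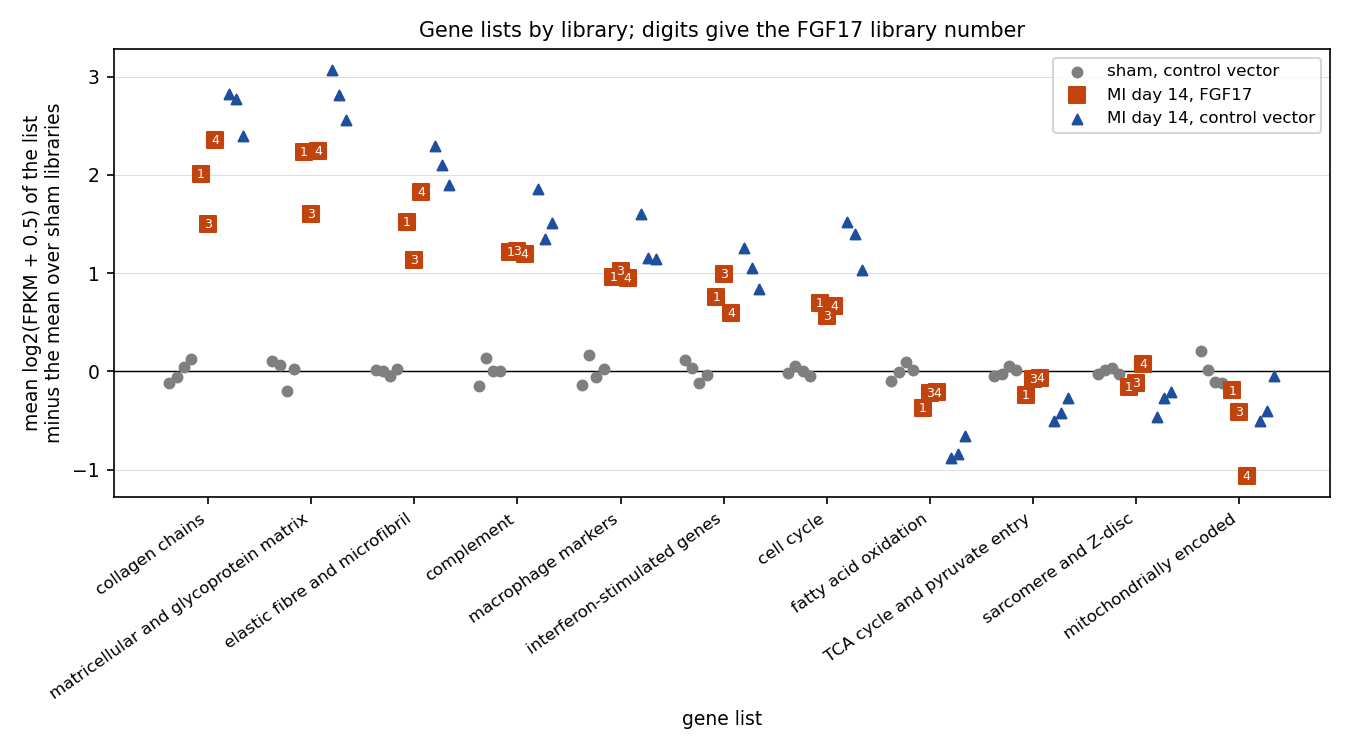
Mean log2(FPKM + 0.5) of each gene list in each library minus its mean over the sham libraries, for sham (grey circles), FGF17 MI day 14 (orange squares, with the library number) and control-vector MI day 14 (blue triangles). FGF17 library 3 is lowest and library 4 highest in the collagen list, and library 4 lies lowest in the mitochondrially encoded list.

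Set against control-vector MI hearts of the same day, FGF17 MI hearts had 438 genes higher (3.63%) and 721 lower (5.98%) of 12052. These calls rest on a spread shared over all 5 groups: a fit of only these 6 libraries called 20 and 41. They also turn on single libraries, with 244 calls in all without control-vector library 1, 412 without control-vector library 2, 378 without FGF17 library 3 and 1692 without control-vector library 4. This comparison shares its FGF17 libraries with the one against sham, so the 2 are read side by side. Of the 20 collagen chains 10 were lower than in control-vector MI hearts, against 5.98% of all genes, and none higher, with a median of -0.62 log2. The count was 0 in the fit of these 6 libraries, 3 without FGF17 library 3 and 3 without control-vector library 1 or 2. Of 27 cell cycle genes 16 were lower (1 in the fit of 6 libraries, 7 without control-vector library 1). Of 26 fatty acid oxidation genes 21 were higher and 1 lower (1 and 0 in the fit of 6 libraries, 11 and 1 without control-vector library 1, 12 and 1 without FGF17 library 3). Acadm was at 239.8, 282 and 244 FPKM with FGF17 and 158, 166 and 193 with the control vector (0.56 ± 0.09 log2, adjusted p = 0.00268). Mki67 was at 1.17, 0.905 and 0.859 FPKM against 2.95, 3.19 and 1.82 (-1.07 ± 0.17 log2, adjusted p = 0.00227). Nppa was at 1533, 1783 and 1922 FPKM against 3383, 3365 and 2500.1 (-0.81 ± 0.19 log2, adjusted p = 0.0147). In each of these 3 genes the groups do not overlap, which held above for 11.4% and below for 14.8% of all genes, and in the fit of 6 libraries the adjusted p was 0.0866, 0.0568 and 0.0693.

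Several of the named genes with the largest differences from control-vector MI hearts overlapped sham in their FGF17 libraries. Cyp1a1 (GRCm38 chr9:57687928-57703824 on the plus strand, ENSMUSG00000032315.6), a cytochrome P450 induced through the aryl hydrocarbon receptor, was at 10.8, 13, 19.5 and 10.03 FPKM in sham, 10.3, 29.2 and 8.16 with FGF17 and 1.45, 0.415 and 1.74 with the control vector. The FGF17 and sham libraries overlapped (adjusted p = 0.908), and all were above the control-vector MI libraries (3.15 ± 0.43 log2, adjusted p = 0.00128, and 0.0428 in the fit of 6 libraries). Acot2 was at 33.4, 36.9 and 39 FPKM against 13.6, 13.9 and 17.6 (1.26 ± 0.15 log2, adjusted p = 0.000574). Pja1, a ubiquitin ligase, was higher by 1.45 ± 0.31 log2 and Acadsb, of branched-chain acyl-CoA breakdown, by 1.32 ± 0.36. Inmt, a methyltransferase, and Myh7b, a slow myosin, were higher by 1.62 ± 0.43 and 1.19 ± 0.27 log2 in the fit of all groups and not called in the fit of 6 libraries. On the other side, the fast skeletal troponin gene Tnnt3 was at 0.3, 1.22, 0.164 and 0.571 FPKM in sham, 0.962, 0.296 and 0.569 with FGF17 and 7.06, 6.9 and 4.48 with the control vector (-2.60 ± 0.57 log2, adjusted p = 0.0116). The fast myosin light chain gene Mylpf was lower by 1.77 ± 0.27. Of 7 skeletal muscle markers 4 were lower than in control-vector MI hearts, where 5.98% of all genes were. The count was also 4 in the fit of 6 libraries, and it ran from 1 to 4 over all alternatives tried. The summed FPKM of the list was 341 to 412 with FGF17 and 294 to 377 with the control vector, and the part of other tissue in these values was not tested. The imprinted gene Mest was at 2.25, 2.1 and 2.13 FPKM with FGF17 and 9.13, 9.54 and 4.81 with the control vector (-1.59 ± 0.21 log2, adjusted p = 0.00107). Trp53i11, a p53-induced gene, was lower by 1.68 ± 0.35. Among matrix genes, Cthrc1 was lower by 1.33 ± 0.22, C1qtnf3 by 1.82 ± 0.27, Col8a1, a short-chain collagen, by 1.71 ± 0.26, Lox by 1.48 ± 0.23 and Postn by 1.36 ± 0.28 log2, of which Cthrc1 and C1qtnf3 kept their call in the fit of 6 libraries. With single libraries left out, the call of Acadsb was lost without FGF17 library 3 or control-vector library 1 or 2. Those of Nppa, Inmt and Myh7b were lost without control-vector library 1 or 2, that of Tnnt3 without FGF17 library 3 or control-vector library 1, and those of Trp53i11 and Postn without control-vector library 1. Acadsb was also lost without FGF17 library 1, and Inmt without FGF17 library 4.

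**Figure D5:**
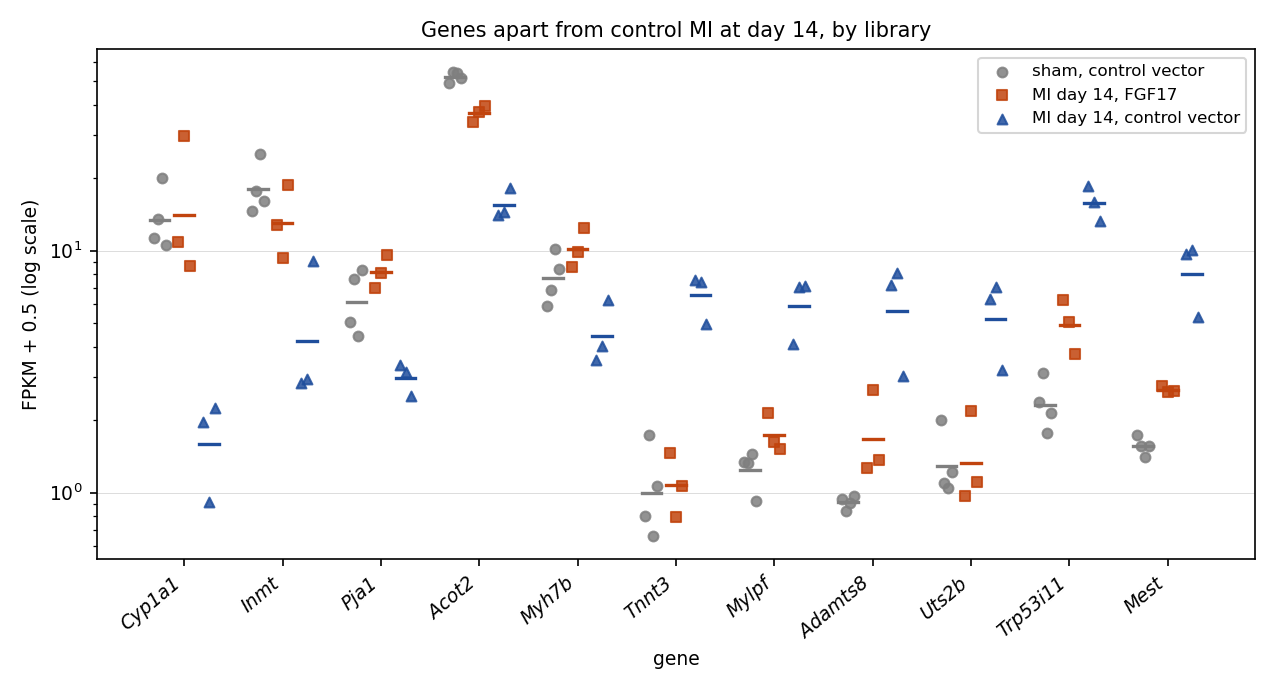
FPKM + 0.5 on a log axis for 11 genes that differed between FGF17 and control-vector MI hearts at day 14, 1 point per library with a line at the mean of the log2 values: sham (grey circles, n = 4), FGF17 MI (orange squares, n = 3) and control-vector MI (blue triangles, n = 3). For Cyp1a1, Pja1, Tnnt3 and Uts2b the FGF17 and sham libraries overlap, and the control-vector MI libraries lie apart from both. The gap between FGF17 and control-vector MI libraries is required by the naming rule.

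Between day 3 and day 14 after MI, FGF17 hearts had 1953 genes higher at day 14 (16.2%) and 2706 lower (22.5%). Genes of the injury phase were among the largest falls. Sprr1a was at 115 ± 19.6 FPKM at day 3 (SD, n = 4) and 5.99, 1.72 and 5.19 at day 14 (-4.72 ± 0.36 log2, adjusted p = 3.55e-08). Arg1, arginase of wound macrophages, was at 102 ± 28.5 FPKM and then at 5.88, 4.68 and 1.4 (-4.65 ± 0.41 log2, adjusted p = 1.84e-07). Spp1 was at 535 ± 48.2 FPKM and then at 33.4, 28.9 and 18.4 (-4.33 ± 0.26 log2, adjusted p = 2.08e-09). Each FGF17 library was still above every sham library for all 3 at day 14. Hmox1 fell by 3.80 ± 0.19, the neutrophil chemokine Cxcl5 by 3.71 ± 0.35 and the histone gene Hist1h2ap by 3.65 ± 0.25 on the log2 scale. By list, 27 of 27 cell cycle genes fell from day 3, by a median of 2.52 log2. So did 20 of 23 chemokines and cytokines and 8 of 10 neutrophil markers. Of 26 fatty acid oxidation genes 21 rose and 1 fell. Collagen chains were lower at day 14 than at day 3 in 11 of 20 cases and higher in 1. Single matrix genes rose after day 3, while of 16 matricellular and glycoprotein genes 4 were higher and 11 lower and of 15 elastic fibre genes 6 were higher and 4 lower. Comp rose from 3.19 ± 0.259 to 33.7, 12.9 and 84.2 FPKM (3.20 ± 0.38 log2, adjusted p = 5.09e-06). Eln rose from 9.16 ± 0.726 to 50.8, 39.4 and 86.4 (2.54 ± 0.31 log2, adjusted p = 7.93e-06), and C1qtnf3 by 2.96 ± 0.25 log2. Cyp1a1 rose from 0.323 ± 0.122 to 10.3, 29.2 and 8.16 FPKM (4.11 ± 0.41 log2, adjusted p = 7.19e-07). Retnla, a gene of alternatively activated macrophages, rose by 2.90 ± 0.34 and Jchain by 3.31 ± 0.69 log2. Retnla at day 14, 11.6, 13.9 and 9.81 FPKM, lay within the range of sham, 11.2, 11, 14.4 and 9.38 FPKM.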

How the data were processed

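RNA-seq was made from mouse hearts in 5 groups and 18 libraries. The values are FPKM of protein-coding genes, computed and deposited by the authors in 1 table. FastQC 0.11.7, cutadapt 1.17, HISAT2 2.1.0, StringTie 1.3.3 and the build GRCm38 are named, without roles, per the submitters' processing notes. The annotation release is not given in the sources used here. Depth is unknown, so no counting error can be given, and each group rests on 3 or 4 libraries. Columns were mapped to groups by name, and their library numbers differ from the replicate numbers in the titles. Of 12988 genes, the 12052 that reached 1 FPKM in 3 or more libraries were fitted on log2(FPKM + 0.5) with limma 3.58.1 in R 4.3.3, with 5 group means and a mean-variance trend, and p-values were adjusted by Benjamini and Hochberg over all tested genes, with a threshold of 0.05. On simulated data of the comparison against sham with 12052 genes, 80% of 100 genes changed by 1 log2 and 99% of 100 changed by 2 log2 were recovered, with 9 false calls. The simulated noise was independent between genes, with no shift shared by the genes of a library. These figures thus do not cover errors from scaling or from a library that stands apart.

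The alternatives comprised pseudocounts of 0.1 and 1, no filter on low values, median-of-ratios scaling, a stricter filter at 5 FPKM, mitochondrially encoded genes left out, totals rescaled to 1000000, only the groups compared, robust variance moderation, the library number as a block, and each library of the groups compared left out in turn. Genes named are the 12 largest called rises and falls against sham, 8 against control-vector MI and 6 against day 3 with a mean of at least 5 FPKM and no overlap, the first 3 members and the largest called rise and fall of each list, and the 8 genes with the largest spread in the FGF17 group. One gene that this rule names is not reported here. The comparison, its members and the 61 gene lists were chosen with earlier results of these data known. Symbols on several rows were left out of lists. In promoters the CCAAT box, 2 forms of the E2F site, the TATA box (TATAAA), the xenobiotic response core (GCGTG), the MCAT element (CATTCC) and the estrogen-related receptor and PPAR elements were searched on both strands.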

Additional observations from a re-analysis of the deposited data

Results flagged for a closer look

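In groups of 4 libraries, 1 library stood far from the other 3 for 18 of 195 values examined (gap over range above Dixon's critical value), where chance flags about 1 in 20. In the sham group these were, in FPKM, Cthrc1 (0.518 in library 1), Sfrp2 (1.69 in library 2), C1qtnf3 (0.0487 in library 5), Emp1 (18.6 in library 5), Spp1 (4.08 in library 2), Nup62 (11.1 in library 4), Bgn (27.5 in library 4), Dcn (118 in library 4), Sfrp5 (3.88 in library 4), Ifit1 (11.2 in library 1), Ccl2 (4.94 in library 2), Uqcrb (603 in library 1), Vegfa (59.3 in library 4), Bola1 (13.9 in library 5) and Hbb-bs (689 in library 4). In the FGF17 group of day 3, library 3 stood apart for C1qtnf3 (0.527 FPKM) and Cyp1a1 (0.504 FPKM). The mitochondrial share of library 4 of the control-vector day 3 group was 18.8%.

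For 3 named genes the difference between FGF17 and control-vector MI hearts itself differed between day 14 and day 3 by an interaction test in limma. Day 14 minus day 3, it was -1.71 log2 for C1qtnf3 (adjusted p = 0.0486), -1.13 log2 for Ccna2 (adjusted p = 0.0324) and 3.79 log2 for Cyp1a1 (adjusted p = 0.0265). This test called 44 genes in all, and 0 without FGF17 day 14 library 3, FGF17 day 3 library 4, control-vector day 3 library 1 or control-vector day 14 library 2 (1424 to 1590 at an unadjusted p under 0.05).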

How the results depend on the processing

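Of 108 named genes called against sham, 77 were called in every alternative, 31 were lost in at least 1 and 0 changed sign. Against sham a filter at 5 FPKM, which tests fewer genes, gave 2150 calls, 2003 of them higher, and after median-of-ratios scaling there were 1454 rises and 1185 falls. Lower calls were 358 without mitochondrially encoded genes, 75 with totals rescaled to 1000000 and 110 with the replicate block. Higher calls were 4654 with totals rescaled to 1000000. With single libraries left out there were 2238 to 3208 calls, 2122 to 3010 higher and 108 to 218 lower, with the fewest without FGF17 library 4 and the fewest lower without sham library 5. The mean Fgf17 level was then 47.5 to 71.6 FPKM. Against control-vector MI a fit of only these groups gave 61 calls (20 higher, 41 lower), the replicate block 700 (291 and 409) and rescaled totals 387 lower. With single libraries left out there were 244 to 1692 calls, 108 to 637 higher and 136 to 1189 lower, and 10 of 47 named calls held throughout. Against day 3 there were 3804 to 4522, and for control-vector MI against sham 4769 to 5872, or 3715 with the filter at 5 FPKM. For the difference of the FGF17 effects between days, limma called 16 genes with a pseudocount of 0.1, 76 with median-of-ratios scaling, 104 without mitochondrially encoded genes, 17 with rescaled totals, 10 with only its groups, 0 to 197 with single libraries left out and 0 with the replicate block (1665 at an unadjusted p under 0.05). The cause of these shifts was not tested. FGF17 and sham columns share only numbers 1 and 4, whose deviations from the group means had r of 0.167 and 0.199 across genes, so the numbers do not establish a pairing. Depth is unknown and limits low genes most.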
